A study of Mus musculus with 6 samples.

Results

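RNA polymerase III transcription factors are the proteins that bring RNA polymerase III to its genes. Of the mouse genes that encode them, 10 were followed here across 6 RNA-seq libraries. Others, such as the gene of TBP, were not members and are given with the lists further below. Members were chosen by symbol: Gtf3a, Gtf3c1 to Gtf3c6, Brf1, Brf2 and Bdp1. All 10 were among the 24421 genes listed in the count tables, and all 10 were among the 15906 genes that had enough reads to be tested. The libraries came from oligodendrocyte progenitor cells (OPCs), the dividing cells from which myelin-forming oligodendrocytes arise, isolated from the cortex of C57BL/6J pups at postnatal day 4 by panning on GalC and then O4 antibody and grown in a proliferation medium with PDGF-AA, bFGF and CNTF. The series' design text names brain tissue instead. Control libraries (n = 3) were Prrc2bf/f, with floxed Prrc2b alleles and no Cre, and knockout libraries (n = 3) were Prrc2bf/f; Olig2-Cre. Olig2-Cre acts in cells that express Olig2, which are not limited to OPCs, and no library carried the Cre without floxed alleles, so effects of Cre and of Prrc2b loss cannot be told apart. Whether the replicates are separate animals is not in the labels, so p-values measure the spread between these libraries only.

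RNA polymerase III makes short untranslated RNAs: transfer RNAs, 5S ribosomal RNA, U6 and 7SK RNA, vault RNAs and the RNA parts of RNase P and RNase MRP. TFIIIA, the zinc finger protein encoded by Gtf3a, binds inside the 5S gene and is dedicated to it. TFIIIC (Gtf3c1 to Gtf3c6) binds the A and B boxes inside transfer RNA genes, joins TFIIIA on the 5S gene, and places TFIIIB, which is made of TBP, Bdp1 and Brf1 and recruits the polymerase. Genes with upstream promoters, such as those of U6, 7SK and the RNase P and MRP RNAs, use the SNAPc complex and a TFIIIB with Brf2 in place of Brf1. Inherited defects of polymerase III subunits such as POLR3A and POLR3B cause human leukodystrophies with too little myelin.

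A few listed RNAs are polymerase III products, and the transcribed sequences of 2 of them are given here. Bc1, a small cytoplasmic RNA of neurons that derives from a transfer RNA, and Rmrp, the RNA of RNase MRP, are shown because their read counts did not overlap between genotypes and lay on opposite sides (values below). Both were picked by that outcome, and neither passed a test given below, so no contrast is read from the pair. Over all tested genes the genotypes did not overlap for 6.34%, and Bc1 was not among the tested genes. In GRCm38, Bc1 is at chr7:144914470-144914637 (plus strand) and Rmrp at chr4:43492788-43493058 (minus strand). Sequences are from GENCODE M21, 5′ to 3′. Capitals mark the A box (positions 14 to 24 of Bc1) and the B box core GGTTCG (positions 57 to 62).
Bc1: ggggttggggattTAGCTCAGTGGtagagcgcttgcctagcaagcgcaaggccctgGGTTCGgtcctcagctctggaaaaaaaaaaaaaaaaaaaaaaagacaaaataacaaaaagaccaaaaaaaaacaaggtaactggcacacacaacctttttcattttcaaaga
Rmrp: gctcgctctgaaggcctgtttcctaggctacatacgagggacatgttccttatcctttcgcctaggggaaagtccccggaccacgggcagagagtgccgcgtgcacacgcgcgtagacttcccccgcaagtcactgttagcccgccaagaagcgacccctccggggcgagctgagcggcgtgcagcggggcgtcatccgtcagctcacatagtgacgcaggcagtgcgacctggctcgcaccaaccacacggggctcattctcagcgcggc
Both motifs were found together in Bc1, 32 bases apart, and neither was found in Rmrp or in Rpph1, the RNase P RNA, on either strand. Of all annotated transcripts cut to the length of Bc1, 0.930% held the A box, 1.73% the B box core and 0.014% both. Bc1 also holds a run of 23 A, and the longest run of A in Rmrp is 3. The libraries were made from poly(A)-selected RNA.

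Gene reads per library ranged from 26015604 to 28114968. Prrc2b itself, counted over all its exons because the labels do not name the floxed ones, stood at 990 ± 105 CPM in controls and 744 ± 88.3 CPM in knockouts (SD, n = 3 each), lower in all 3 knockout libraries than in any control (edgeR adjusted p = 1.00, and 0.00688 with the replicate block). CPM stands for gene reads scaled to a common library size, with TMM factors. Summed OPC markers (10 genes) stood between 2798 and 4753 CPM in controls and between 2806 and 5554 CPM in knockouts, and no marker of any list was at 0 reads in all libraries. Markers of other cells were present too: 12 neuronal genes summed to 3046 to 4379 CPM in controls and 2558 to 3987 CPM in knockouts. The 8 endothelial genes summed to 15.4 to 79.0 against 39.2 to 273 CPM, the 8 astrocyte genes to 1345 to 2418 against 1571 to 2862, the 8 ependymal and choroid plexus genes to 356 to 1881 against 825 to 2755, and the 8 pericyte and fibroblast genes to 85.9 to 529 against 112 to 800. The 8 oligodendrocyte genes summed to 205 to 880 against 251 to 669 CPM and the 8 microglial genes to 23.0 to 287 against 20.2 to 276. Of these, 6 oligodendrocyte and 8 microglial genes were tested, with 0 calls. All 8 endothelial, 6 ependymal and choroid plexus, 4 astrocyte and 2 pericyte and fibroblast genes were called higher in the knockout with the replicate block described below, and 4 neuronal genes lower. The part of cell makeup in the results that follow was not tested, and in these bulk libraries fewer cells of a type and less RNA per cell cannot be told apart.

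Gtf3a stood apart from the other 9 genes in its difference between genotypes. Its level was 4.87, 7.67 and 4.95 CPM in control libraries 1, 2 and 3 and 2.77, 4.38 and 2.68 CPM in knockout libraries 1, 2 and 3, from 132, 201 and 140 reads against 76, 123 and 71. Every knockout library lay below every control library, and in both genotypes the library numbered 2 was the highest. Within the same-numbered pairs the knockout level was 0.568, 0.571 and 0.541 of the control level. The 3 ratios were close to each other although the levels were not. At 71 to 201 reads per library, counting error alone can spread such ratios more widely. Their closeness is therefore not read as a result, and the blocked p given below draws on it. The means were 5.83 ± 1.59 CPM in controls and 3.28 ± 0.956 CPM in knockouts (SD, n = 3 each).

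The family was chosen with these Gtf3a values known, so they are a description and support nothing. With the replicate number as a block in the fit, Gtf3a had a log2 fold change (knockout over control) of -0.83 (SE 0.18, 95% interval -1.25 to -0.42) with an edgeR adjusted p of 0.0401. By size this fall ranked 72 among all 15906 tested genes. Among the 351 called falls of at least 2 CPM mean level that were lower in all 3 pairs it ranked 6. Without the block the log2 fold change was the same, -0.83 (SE 0.32, interval -1.61 to -0.05), with an edgeR unadjusted p of 0.0395 and an adjusted p of 1.00. The blocked call was lost without pair 1, 2 or 3 (edgeR adjusted p 0.106, 0.102 and 0.162), with library totals (0.0513), after GC correction (0.0539) and with DESeq2 (0.0625), while the log2 fold change stayed between -0.85 and -0.81 over these.

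Counting bears on the Gtf3a level. The gene (ENSMUSG00000016503.17) is at chr5:146948657-146955614 in GRCm38, on the plus strand. Of its 2548 exon bases, 1505 (59.1%) are also exon of Mtif3, a mitochondrial translation initiation factor gene on the opposite strand, and the sources used here do not give the strand setting that decided how reads there were assigned. A processed pseudogene on chromosome 17 shares 578 bases with it at 93.8% identity. Mtif3 read 7.24, 8.05 and 7.78 CPM in controls and 6.19, 7.51 and 8.05 CPM in knockouts, which overlapped, and its blocked log2 fold change was -0.09 (edgeR adjusted p = 0.807, SE 0.15). The Gtf3a transcript is also the richest in GC of the 10 (57.4%, at or above 88.0% of tested genes).

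**Figure D1:**
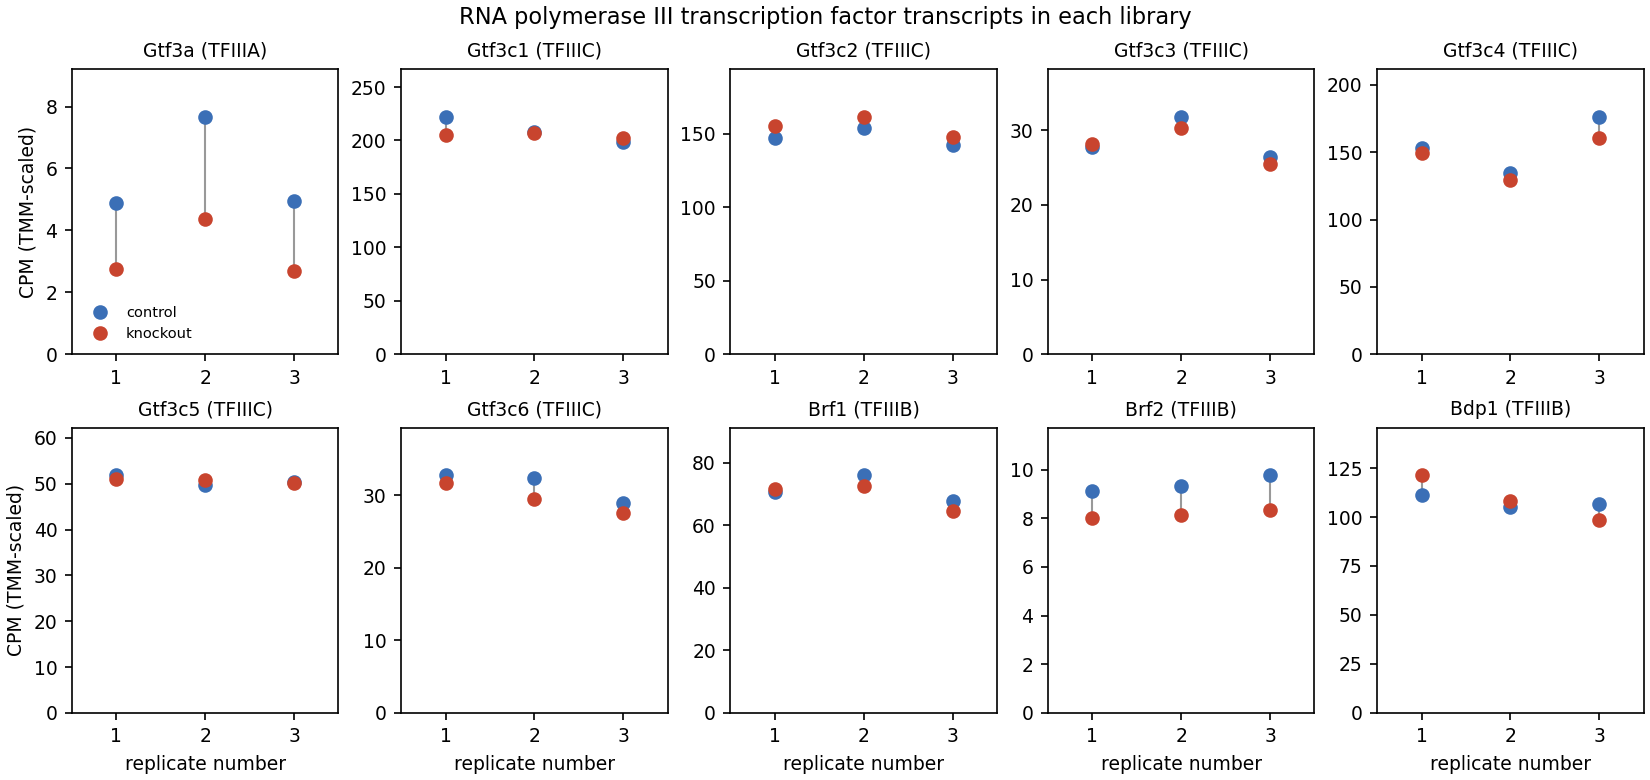
TMM-scaled CPM of each of the 10 genes (one panel each, axis from 0) against replicate number, with control in blue, knockout in red and a line joining libraries of the same number. In the Gtf3a panel the knockout point lies well below its control in all 3 pairs (ratios 0.568, 0.571 and 0.541), and in the Brf2 panel slightly below (0.879, 0.872 and 0.855), while the points of the other 8 genes lie close together or cross.

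The 6 subunits of TFIIIC did not pass the test in either fit. Gtf3c1, the largest subunit, which contacts the B box, stood at 210 ± 11.8 CPM in controls and 205 ± 2.57 CPM in knockouts (SD, n = 3), with a blocked log2 fold change of -0.03 (interval -0.12 to 0.06). Gtf3c2 was the only gene of the 10 with a higher value in all 3 knockout libraries than in their pairs, by ratios of 1.06, 1.05 and 1.04. Its libraries of the 2 genotypes overlapped (147, 154 and 142 CPM against 155, 162 and 148 CPM), and its blocked log2 fold change was 0.07 (edgeR adjusted p = 0.439, SE 0.04). Part of that gene, 2556 of 6564 exon bases, is shared with the overlapping gene model Gm29609 on the same strand. Gm29609 is not listed in the count tables.

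Gtf3c4 and Gtf3c6 were lower in all 3 pairs but by little. Gtf3c4, which has histone acetyltransferase activity, read 153, 135 and 176 CPM in controls and 149, 130 and 161 CPM in knockouts, with ratios of 0.972, 0.962 and 0.911 and a blocked log2 fold change of -0.08 (edgeR adjusted p = 0.391, SE 0.04). Here the libraries numbered 3 were high and those numbered 2 low in both genotypes, and the genotypes overlapped. Gtf3c6, the smallest subunit, had ratios of 0.966, 0.912 and 0.954 and a blocked log2 fold change of -0.08 (interval -0.26 to 0.10). Gtf3c5 showed almost no difference, at 50.7 ± 1.07 and 50.7 ± 0.395 CPM (interval -0.14 to 0.14 on the log2 scale). Gtf3c3, which bridges to TFIIIB, stood at 28.7 ± 2.78 and 27.9 ± 2.39 CPM (interval -0.22 to 0.15), and an unprocessed pseudogene on chromosome 10, Gm232, shares 1326 bases with it at 95.6% identity. Gtf3c4 (chromosome 2, 28822299 to 28840360) and Gtf3c5 (28566311 to 28583751) lie on the same chromosome as Prrc2b (32151082 to 32234537).

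Of the TFIIIB genes, Brf2 had the largest difference. It read 9.12, 9.31 and 9.77 CPM in controls and 8.01, 8.12 and 8.35 CPM in knockouts, from 244 to 276 against 220 to 228 reads. All 3 knockout libraries lay below all 3 controls, and libraries of 1 genotype lay close together. Counting error alone can spread libraries more widely at these read numbers, so that closeness is not read as a result. The blocked log2 fold change was -0.20 (SE 0.13, interval -0.50 to 0.10, edgeR adjusted p = 0.484), which did not pass. Brf1, the counterpart used on transfer RNA and 5S genes, read 71.5 ± 4.15 and 69.6 ± 4.40 CPM (blocked log2 fold change -0.04, interval -0.17 to 0.09). Bdp1 read 108 ± 3.35 and 109 ± 11.3 CPM (0.02, interval -0.11 to 0.15), with ratios of 1.09, 1.03 and 0.928 that ran both ways. The difference between the Brf2 and Brf1 changes was not tested.

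**Figure D2:**
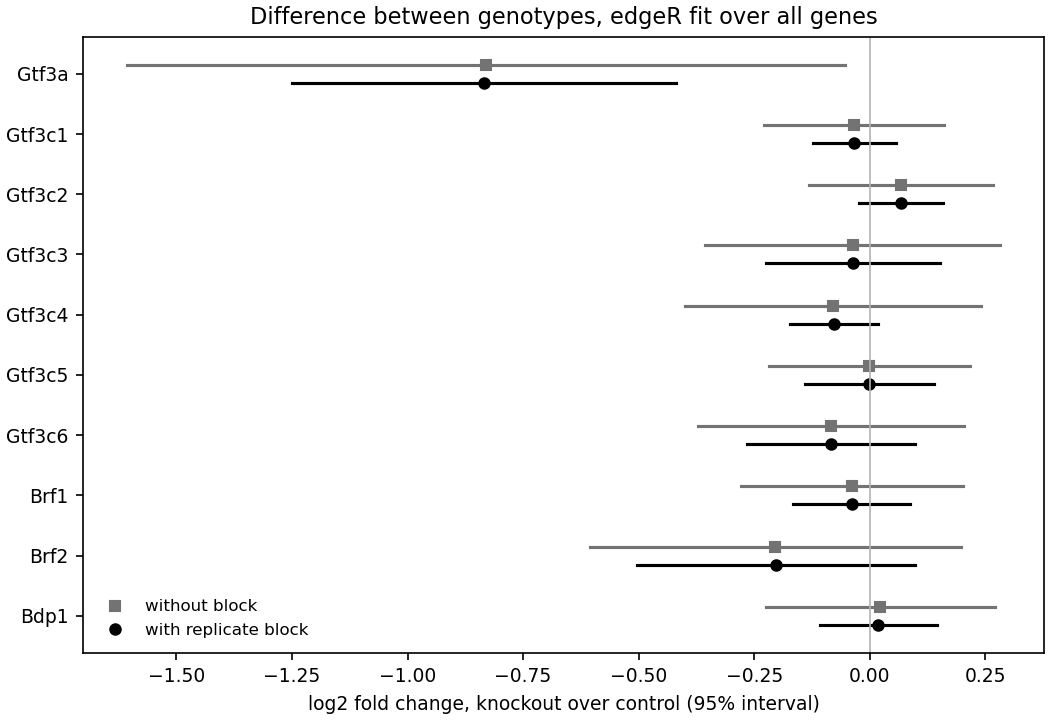
Log2 fold change of each gene (knockout over control, points) with its 95% interval (lines), from the edgeR fit over all tested genes without the replicate block (grey squares) and with it (black circles). The Gtf3a intervals lie below 0 in both fits, and those of the other 9 genes include 0.

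Counted over the family, 0 of 10 passed in the edgeR fit without the block (adjusted p under 0.05), as did 0% of all tested genes. At an unadjusted p under 0.05 the edgeR fit had 1 of the 10, Gtf3a, and 1.72% of all tested genes, and DESeq2 and limma-voom called 0 of the 10 after adjustment. With the block 1 of 10 was lower and 0 higher, where 2.23% of all tested genes were called lower and 1.57% higher. That split of all blocked calls, 354 lower and 250 higher, was 231 and 271 with library totals and 192 and 208 after GC correction. The family's median log2 fold change was -0.04 with the block, against 0.00 over all tested genes, and 8 of 10 values were below 0. Genotypes did not overlap for 2 of 10 genes (Gtf3a and Brf2, both lower), and for 6.34% of tested genes (3.60% lower and 2.75% higher). Of the 10, 4 were lower in all 3 pairs and 1 was higher, against 20.9% and 19.6% of tested genes. As this contrast is the one that led to the choice of the family, nothing is read from these counts.

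The members' differences between replicate numbers passed the test for 2 of 10 genes. The choice did not use these differences themselves. It did use the Gtf3a result of the fit with the replicate block, which has the same terms. The Gtf3a result given here is therefore a description and supports nothing. In a fit with genotype as a term, 51.2% of tested genes differed between the replicate numbers at an edgeR adjusted p under 0.05, and 58.0% at an unadjusted one. Gtf3c4 was called (adjusted p = 0.00131), at 151, 132 and 169 CPM averaged over the pairs numbered 1, 2 and 3. Gtf3a was also called (edgeR adjusted p = 0.0408), at 3.82, 6.02 and 3.82 CPM, but it lost this call when any single library was left out (0.0710 to 0.171) and with library totals (0.0511). Summed neuronal markers were likewise highest in the libraries numbered 2 (4379 and 3987 CPM, against 2558 to 3070 CPM in the rest) and summed OPC markers lowest (2798 and 2806 CPM, against 4052 to 5554 CPM). Microglial sums were highest there too (287 and 276 CPM, against 20.2 to 222 CPM). Within each genotype the astrocyte, endothelial, ependymal and choroid plexus, and pericyte and fibroblast sums were lowest in the library numbered 2. In the libraries numbered 3, where Gtf3c4 was highest, summed ependymal and choroid plexus markers (1881 and 2755 CPM, against 356 to 1018 CPM in the rest) and pericyte and fibroblast markers (529 and 800 CPM, against 85.9 to 177 CPM) were highest too. The part of these markers in the Gtf3a and Gtf3c4 values was not tested. The other 8 genes varied less: Gtf3c5 and Brf2 had mean log2 levels that spanned 0.03 and 0.08 across the numbers. The median span over the family was 0.17, against 0.45 over all tested genes. These medians were not matched for read number, so their difference is not read as a result.

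Per kilobase of exon, the levels of the 10 genes fell into tiers. Highest in control libraries were the TFIIIC subunits Gtf3c2 (22.5 ± 0.902 RPKM), Gtf3c4 (21.4 ± 2.87) and Gtf3c1 (17.4 ± 0.979), where RPKM is CPM per kilobase of all annotated exon bases. Next came Gtf3c6 (11.2 ± 0.763), Gtf3c5 (11.1 ± 0.235), Bdp1 (9.78 ± 0.305) and Brf1 (9.18 ± 0.533), then Gtf3c3 (5.82 ± 0.565), and lowest were Brf2 (2.93 ± 0.103) and Gtf3a (2.29 ± 0.625; SD, n = 3). The median tested gene stood at 5.68 RPKM. Over the 6 libraries the ranges of neighbours in this order were separate at 3 places: between Gtf3c1 and Gtf3c6, between Brf1 and Gtf3c3, and between Gtf3c3 and Brf2. All other neighbours overlapped. Knockout libraries had the same order apart from Gtf3c6 and Gtf3c5, which changed places, and Gtf3a was at 1.29 ± 0.375 RPKM there.

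The lengths used shape this order. With the length of the longest annotated transcript Brf1 moved from rank 7 to rank 3 (21.8 RPKM), and Gtf3c4 from rank 2 to rank 4 (21.7 RPKM), while Brf2 (4.95) and Gtf3a (2.96) stayed lowest. The Gtf3a level was also taken with only the 1043 exon bases not shared with Mtif3 as its length. Its mean would then be 5.59 ± 1.53 RPKM in control and 3.14 ± 0.916 RPKM in knockout libraries. Both means lie above those of Brf2, but in knockout library 3 Gtf3a would still lie slightly below Brf2.

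**Figure D3:**
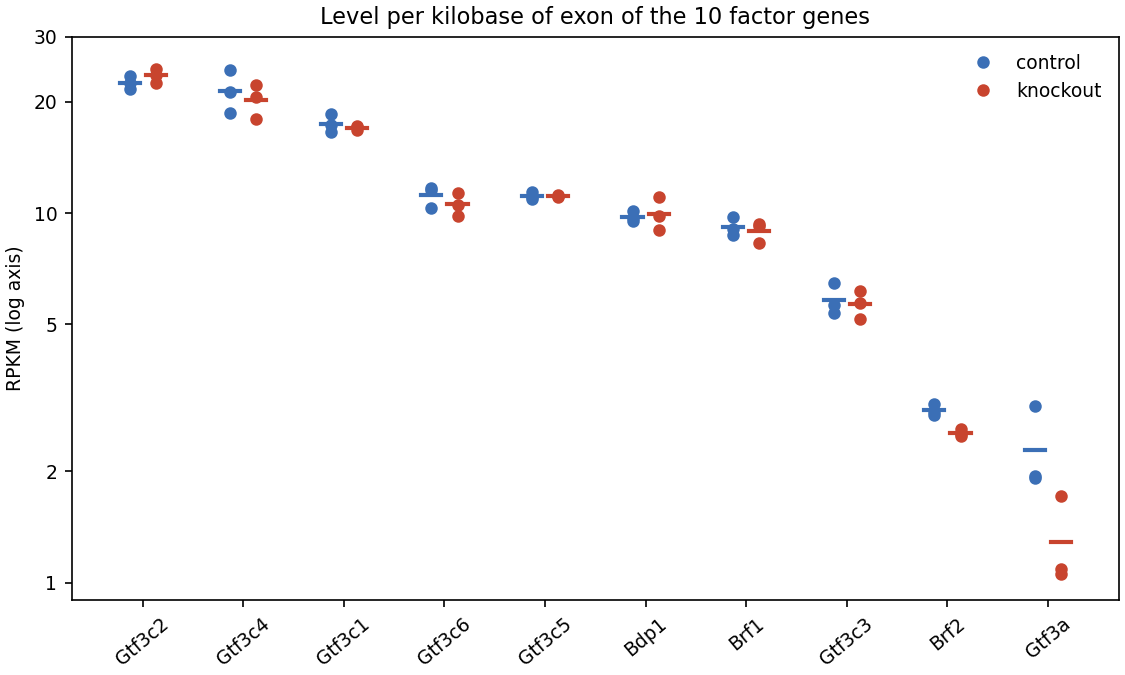
RPKM on a log axis for the 10 genes in order of the control mean, with each library as a point, control in blue, knockout in red, and group means as bars. TFIIIC subunits Gtf3c2, Gtf3c4 and Gtf3c1 lie between 16.6 and 24.6 RPKM, and Brf2 and Gtf3a lie between 1.05 and 3.04 RPKM.

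Other genes of the machinery were taken from lists chosen by role. None of the 11 specific polymerase III subunits passed with the block (median log2 fold change -0.05, range -0.19 to 0.11), nor did any of 7 subunits shared with other polymerases (median -0.07) or 8 factors of upstream promoters including TBP (median -0.03). Among the specific subunits, the alternative subunits Polr3g and Polr3gl read 3.91 ± 0.238 and 24.5 ± 4.76 CPM in controls and 4.11 ± 0.918 and 21.5 ± 3.82 CPM in knockouts. Tbp, the TFIIIB subunit shared by all 3 nuclear polymerases, read 42.4, 41.7 and 42.3 CPM in controls and 45.4, 44.6 and 45.0 CPM in knockouts. Its knockout libraries all lay above its controls, and the blocked log2 fold change was 0.09 (edgeR adjusted p = 0.518, SE 0.07). Polr2e, a shared subunit, and Snapc5, an upstream promoter factor, had all knockout libraries below all controls. Their blocked log2 fold changes were -0.18 and -0.16 (edgeR adjusted p = 0.199 and 0.519). Over all tested genes the genotypes did not overlap for 6.34%. Polymerase I factors (12 genes) and polymerase II general factors (14 genes) had medians of -0.003 and -0.01 and 0 calls. With the block 3.80% of all tested genes were called, so 0 calls in lists this small are not read as a result. Without the block edgeR called 0 of the 80 tested genes of all 8 lists. Of these, 3 (Maf1, Tsen34 and Rmrp) had an edgeR unadjusted p under 0.05, as did 1.72% of all tested genes.

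Maf1 and Tsen34 were the genes of these lists that passed with the block, 2 of the 80 tested, where 3.80% of all tested genes were called. Maf1 encodes the main repressor of RNA polymerase III, which binds the polymerase and keeps it from Brf1-containing TFIIIB. It read 168, 145 and 151 CPM in controls and 138, 122 and 133 CPM in knockouts. All knockout libraries were below all controls, with ratios of 0.819, 0.840 and 0.881 in the pairs. Its blocked log2 fold change was -0.24 (edgeR adjusted p = 0.0214, SE 0.04), and without the block -0.24 (edgeR adjusted p = 1.00, SE 0.10). The call held in all 8 blocked settings with all libraries and was lost without pair 1 (0.0730) or pair 3 (0.0671). The other 5 regulators, Myc, Rb1, Rbl1, Rbl2 and Trp53, had values from -0.09 to 0.07 and did not pass.

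Tsen34, a catalytic subunit of the endonuclease that removes introns from transfer RNA precursors, read 102, 95.8 and 90.3 CPM in controls and 79.1, 68.0 and 83.4 CPM in knockouts. The genotypes did not overlap, and the ratios were 0.778, 0.709 and 0.925. Its blocked log2 fold change was -0.32 (edgeR adjusted p = 0.0431, SE 0.07), and the call was lost without pair 1 (0.109) or pair 2 (0.148), with library totals (0.0575), among genes of at least 5 CPM (0.0797) and after GC correction (0.0691). Of its exon bases 10.9% are shared with Mboat7 on the opposite strand. Of the 20 genes that handle polymerase III products 19 did not pass, including the La protein gene Ssb, with a list median of -0.03. Rpp21 had the lowest value of that list, -0.49 (edgeR adjusted p = 0.221, SE 0.19). It read 6.68, 5.76 and 6.55 CPM in controls and 4.73, 5.27 and 3.63 CPM in knockouts, which did not overlap.

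**Figure D4:**
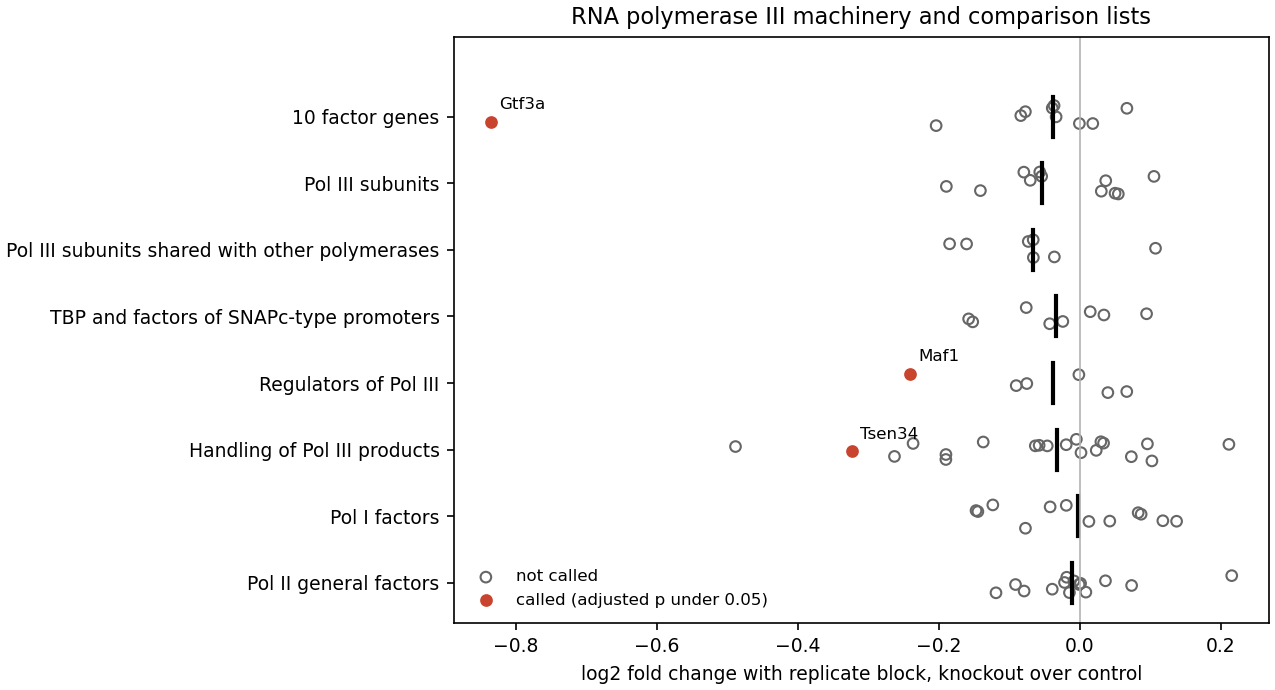
Blocked log2 fold change (knockout over control) of each gene, by list, for the 10 factor genes and 7 lists (the polymerase III products are not drawn), with the list median as a black bar and genes at an edgeR adjusted p under 0.05 filled in red. Gtf3a (-0.83), Tsen34 (-0.32) and Maf1 (-0.24) are the filled points, and the medians of the lists drawn lie between -0.07 and 0.

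Products of RNA polymerase III gave few reads in these poly(A) libraries. Of 10 such RNAs searched for, 5 were listed and 2 passed the filter on low counts; all had a mean over the 6 libraries below the 1 CPM set for naming and are named after their values were seen. Rmrp had 12, 9 and 11 reads in control and 24, 17 and 48 reads in knockout libraries. All knockout libraries exceeded all controls, as for 2.75% of all tested genes, and knockout library 3 was the highest. Summed endothelial markers were also higher in each knockout library than in its pair (53.6 to 116, 15.4 to 39.2 and 79.0 to 273 CPM). So were the ependymal and choroid plexus, pericyte and fibroblast, astrocyte and OPC sums. The endothelial sum, the ependymal and choroid plexus sum and the pericyte and fibroblast sum were highest in knockout library 3. The part of all these markers in the Rmrp counts was not tested. Its blocked log2 fold change was 1.38 (SE 0.50), with an edgeR adjusted p of 0.178, and without pair 3 it was 0.90 (edgeR adjusted p = 0.617). Rpph1 had 12, 19 and 8 against 28, 18 and 41 reads, which overlapped, with a blocked log2 fold change of 1.12 (edgeR adjusted p = 0.335, SE 0.56) that was 0.50 without pair 3 and 1.80 without pair 2 (edgeR adjusted p = 0.800 and 0.167). Both share exon bases with neighbours, 45.8% of Rmrp with Ccdc107 on the opposite strand and 73.0% of Rpph1 with Ccnb1ip1 on the same strand.

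Bc1, the RNA with both internal boxes printed above, had 16, 6 and 12 reads in control and 0, 2 and 5 reads in knockout libraries. The genotypes did not overlap, and among tested genes 3.60% likewise had all knockout libraries below all controls. The count of 0 in knockout library 1 allows up to 3 reads, or 0.109 CPM, from counting error alone. It did not reach the filter, and in a fit with no filter the log2 fold change was -2.22 with an SE of 1.02 (edgeR adjusted p = 1.00), and with the block -2.29 with an SE of 1.15 (edgeR adjusted p = 0.356). Summed neuronal markers were also lower in each knockout library than in its pair (3070 to 2558, 4379 to 3987 and 3046 to 2586 CPM), and their part in the Bc1 counts was not tested. The vault RNA gene Vaultrc5 had 2, 0 and 4 against 5, 1 and 7 reads, and Rnu6 had 1 read in control and 2 in knockout libraries.

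**Figure D5:**
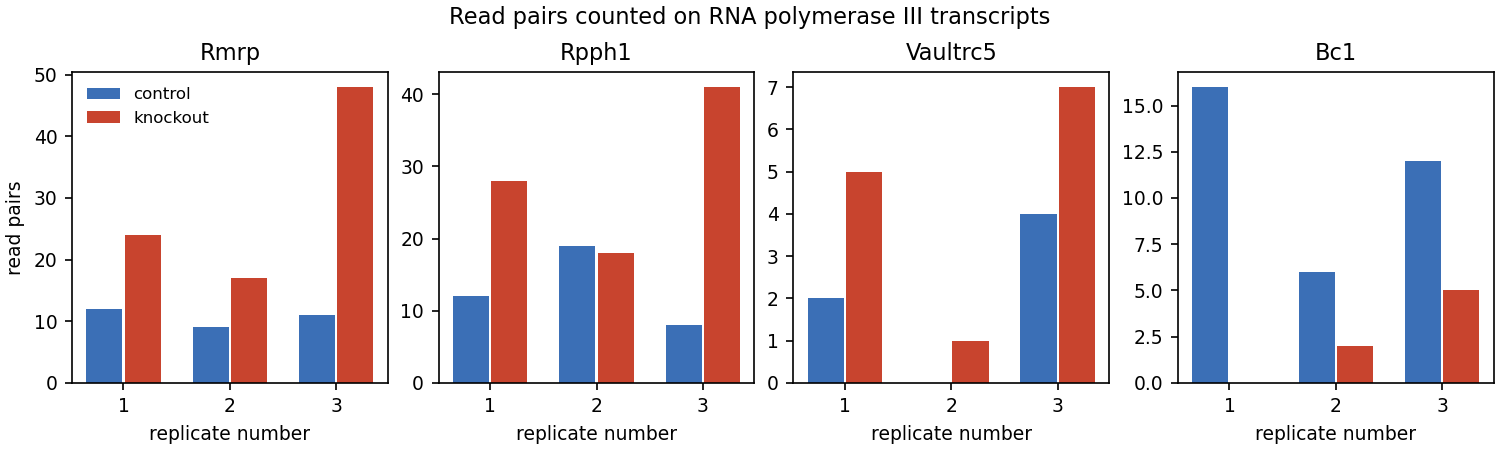
Read pairs counted on 4 RNA polymerase III transcripts (bars from 0) in each library, by replicate number, with control in blue and knockout in red. Rmrp bars are higher in all 3 knockout libraries (24, 17 and 48 against 12, 9 and 11), Bc1 bars lower (0, 2 and 5 against 16, 6 and 12), and Rpph1 and Vaultrc5 bars overlap between genotypes.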

How the data were processed

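RNA-seq counts of 6 libraries were used. Per the labels' protocols, libraries were stranded, poly(A)-selected and sequenced in paired-end mode. The values deposited are raw counts of read pairs per gene symbol. Per the submitters' processing notes, mm10 and the tools HTSeq 0.12.4, HISAT2 2.2.1 and DESeq2 1.26.0 were used, with no role stated; for annotation and strand setting the sources used here give nothing. The 5 summary entries that name no gene were left out: pairs in no gene (18.9% to 21.3% of all pairs), in several genes (1.43% to 1.50%), of low quality (2.91% to 4.09%), unaligned (0.962% to 1.39%) and aligned more than once (3.34% to 3.54%). Gene reads per library were 26015604 to 28114968. From the counts, edgeR 4.0.16 in R 4.3.3 gave TMM scaling, its expression filter (15906 of 24421 genes) and a two-sided quasi-likelihood test, with Benjamini-Hochberg adjustment over all tested genes and calls at 0.05. SE is the log2 fold change over the square root of F. RPKM used exon lengths of GENCODE M21 (GRCm38), which gave lengths for 15332 tested genes; near copies were sought with blastn (at least 300 bases and 90% identity). The replicate numbers shared by the genotypes served as a block in a second fit: deviations of log2 (CPM + 0.5) from group means had correlations of 0.778, 0.751 and 0.726 within numbers 1, 2 and 3, which was taken as pairing. edgeR's common biological variation was 0.315 without and 0.104 with the block, at 4 and 2 residual degrees of freedom. Alternatives were other scalings, filters, tests (DESeq2 1.42.0, limma-voom 3.58.1), lengths, a GC correction in 20 bins and libraries left out. Fits were also run on simulated counts, with the spread per gene taken from the blocked fit. For the unblocked and replicate-number fits, simulated means held no replicate differences besides planted ones. These settings differ from the libraries here, so nothing is drawn from that run. Members, lists and rules were chosen with earlier results of these data known. Named were the 10 members, Prrc2b, called genes of each list (up to 4) and polymerase III products of at least 1 CPM. Mtif3, Tbp, Polr3g, Polr3gl and genes listed as not called were added for their role. Polr2e, Snapc5 and Rpp21 were added because their genotypes did not overlap. Polr1f, Polr1g and Polr1h were matched by their older symbols Twistnb, Cd3eap and Znrd1.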

Additional observations from a re-analysis of the deposited data

Results flagged for a closer look

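Read pairs outside the gene counts differed by genotype. Pairs in no gene made up 20.8% of all pairs on average in knockout and 19.7% in control libraries (20.4% to 21.3% against 18.9% to 20.1%). Pairs of low alignment quality made up 3.83% against 3.11% (3.60% to 4.09% against 2.91% to 3.29%), and unaligned pairs 1.25% against 1.03% (1.16% to 1.39% against 0.962% to 1.14%). In each of these 3 classes every knockout library lay above every control library, which is why they are given. Their part in the values of Gtf3a, Rmrp and the other genes was not tested.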

How the results depend on the processing

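Without the block, 0 genes and 0 members were called in every setting with all libraries or 1 left out, except that DESeq2 called 20 genes. The pairing of replicate numbers mattered most. With the replicate block 604 genes and 1 member were called. Other blocked counts were 573 genes with DESeq2 size factors, 502 with library totals, 1034 with no filter, 435 with genes averaging 5 CPM or more, 400 after GC correction, 680 with DESeq2 and 712 with limma-voom; 1 member, Gtf3a, was called with DESeq2 size factors, with no filter and with limma-voom, and 0 in the others. At least 5 CPM leaves Gtf3a out. Without pair 1, 2 or 3 the block gave 444, 521 and 174 genes and 0 members. The split of calls moved with scaling: 250 higher and 354 lower with TMM, 271 and 231 with library totals, 208 and 192 after GC correction. The lists held 2 calls with the block, 0 without pair 1, 1 without pair 2 (Maf1) and 1 without pair 3 (Tsen34), the last 3 chosen after seeing the data. For the replicate number, 1 member was called with library totals, among genes averaging 5 CPM or more, and with any library left out. The order of levels had 5 separate neighbours with transcript lengths, and 3 to 5 with a library left out. Differences near 0, none of them called, changed sign. Gtf3c5 was 0.0253 with library totals (0.0258 with the block), 0.0188 with at least 5 CPM (0.0192 with the block), 0 with the block and DESeq2 or its size factors, and 0.0177 and 0.0057 with the block without pairs 1 and 3. With the block and without pair 1, Gtf3c1 was 0.0150 and Bdp1 -0.0267, and Bdp1 was -0.0103 after GC correction. With 1 library left out and no block, Gtf3c1 ranged from -0.0675 to 0.0110, Gtf3c3 from -0.0992 to 0.0426, Gtf3c4 from -0.172 to 0.0273, Gtf3c5 from -0.0155 to 0.0175, Brf1 from -0.0719 to 0.0121, Bdp1 from -0.0597 to 0.0904 and Mtif3 from -0.168 to 0.0143. Reads were few for Gtf3a (743 over the 6 libraries) and for the polymerase III products.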
